A study of Homo sapiens with 18 samples.

Results

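The 10 small nucleolar RNA (snoRNA) host transcripts GAS5, SNHG1, SNHG5, SNHG6, SNHG7, SNHG8, SNHG12, SNHG15, ZFAS1 and EPB41L4A-AS1 were followed in IMR90 cells, a human lung fibroblast line, as the rows that carry these symbols among the 56269 genes of the deposited table. Polyadenylated RNA was sequenced from 18 libraries in 6 groups of 3 replicates. Cells had been pre-incubated for 6 h with PBS, with cNSF or with fNSF, and each pre-incubation was sampled without and with tBHP. cNSF is hyaluronan (HA) from naked mole-rat skin fibroblasts after mock digestion, which leaves it very long, and fNSF is the same HA after partial digestion with hyaluronidase, each given at 20 μg/ml. tBHP (tert-butyl hydroperoxide, an oxidant) was given at 200 μM for 1 h after the HA had been removed, and those cells were collected 6 h after its start. Cells without tBHP were collected at the end of the pre-incubation, so that exposure to tBHP and time since the HA was removed cannot be told apart. All groups were grown at low oxygen, and all come from this single line. The study's methods call the replicates biological.

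snoRNAs are short guide RNAs that pair with ribosomal RNA and direct its methylation or its conversion of uridine to pseudouridine. Most human snoRNAs are cut out of the introns of longer host genes, and in several hosts the spliced exons have no conserved protein product. Their spliced RNA is still bound by ribosomes, ends its short reading frames early and is removed by nonsense-mediated decay, a pathway that needs translation, so these transcripts are known to gain stability when translation is blocked. Many begin, as ribosomal protein mRNAs do, with a C followed by an unbroken run of pyrimidines, the terminal oligopyrimidine (TOP) start whose translation depends on mTORC1.

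The starts of the members are shown here because the TOP start is the feature by which the family is known. RefSeq (GRCh38.p14) gave a promoter window for 8 of the 10 members, with SNHG6 and SNHG15 unmatched. Each line holds 20 bases before and 30 bases from the annotated start, read along the transcribed strand, and capitals mark the unbroken pyrimidine run from the first transcribed base.
SNHG12 (chr1:28581844-28581893, minus strand): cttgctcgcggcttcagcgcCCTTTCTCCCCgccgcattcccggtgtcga
SNHG5 (chr6:85678704-85678753, minus strand): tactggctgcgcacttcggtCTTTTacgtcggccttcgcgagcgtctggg
ZFAS1 (chr20:49278622-49278671, plus strand): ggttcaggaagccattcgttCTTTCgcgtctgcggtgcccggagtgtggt
SNHG7 (chr9:136728155-136728204, minus strand): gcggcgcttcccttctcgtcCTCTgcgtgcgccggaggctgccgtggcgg
SNHG1 (chr11:62855856-62855905, minus strand): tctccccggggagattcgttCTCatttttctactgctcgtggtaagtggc
SNHG8 (chr4:118278742-118278791, plus strand): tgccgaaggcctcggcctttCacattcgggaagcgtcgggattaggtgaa
A C start with a run of at least 5 pyrimidines was present in 3 of the 8 members (SNHG12 with 11, SNHG5 with 5 and ZFAS1 with 5) and in 4.07% of all 35116 RefSeq windows. The run was 4 bases in SNHG7, 3 in SNHG1 and 1 in SNHG8, and the RefSeq starts of GAS5 and EPB41L4A-AS1 were an A and a T. The RefSeq start of GAS5 lies upstream of the whole GENCODE 29 gene. In GENCODE, 6 of the 29 GAS5 transcripts share the commonest first 20 bases, which start at chr1:173867989 and read CTTTTCgaggtaggagtcga, with a run of 6 (CTTTTC). A C start with a run of at least 5 was present in GENCODE in 6 of 29 transcripts of GAS5, 3 of 5 of SNHG6, 3 of 23 of SNHG5, 3 of 10 of ZFAS1, 4 of 17 of SNHG12, 1 of 25 of SNHG1 and 1 of 5 of SNHG8. It was in none of the 4 of SNHG7, the 10 of SNHG15 or the 4 of EPB41L4A-AS1, and in 2.41% of all 206694 GENCODE transcripts. Of the transcription factor motifs searched on both strands of the windows, CCAAT was present in GAS5 (3 matches) and SNHG5 (1 match) and in 34.6% of all windows. CACGTG was present in SNHG7 alone of the 8 and in 7.26% of all windows. TATAAA was present in SNHG1 and SNHG7 and in 11.5% of all. In SNHG7 it began 30 bases before the start, and in SNHG1 it lay at base 40 of the transcribed part, on the other strand. TGATGCAAT, TGACGTCA, TGACTCA, TGACNNNGC and CCGGAAG were in none of the 8, against 0.236%, 1.85%, 4.95%, 13.3% and 10.3% of all windows.

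All 10 members passed the filter on low values, a mean of at least 10 normalized counts (reads over a library's DESeq2 size factor), as did 13686 genes in all. Library depth lay between 20261103 and 26287660 reads on genes, of which the members held 8806 to 13435, or 0.0426% to 0.0599%. The fibroblast label held in the markers: all 10 fibroblast genes were detected in each group, while the summed normalized counts of 5 epithelial and 5 immune genes did not exceed 12.5 in any library. Of the 5 endothelial genes PECAM1, CDH5 and ERG did not exceed 2.19 in any library, VWF lay between 3.73 and 25 and TEK between 694 and 1453. After tBHP in PBS cells TEK fell (log2 change -0.40, limma adjusted p = 0.00388) and VWF rose (1.32, adjusted p = 0.00982), and their part in the results was not tested.

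In PBS cells without tBHP, divided by the merged exon length of each gene in GENCODE, GAS5 was highest at 923 ± 23.4 normalized counts per kb (SD, n = 3). SNHG5 followed at 725 ± 27.8, SNHG1 at 655 ± 44.2 and SNHG8 at 640 ± 34.0, and the ranges of SNHG5 and SNHG1 overlapped, as did those of SNHG1 and SNHG8. Below them came SNHG6 at 315 ± 33.0, ZFAS1 at 208 ± 6.40, SNHG7 at 152 ± 3.62, SNHG15 at 131 ± 9.41, SNHG12 at 96.2 ± 2.15 and EPB41L4A-AS1 at 65.6 ± 1.02. Over the longest transcript of each gene the PBS means of GAS5 and SNHG5 were 1973 ± 50.1 and 1970 ± 75.7 per kb, with overlapping ranges, and SNHG15 came after SNHG12 on that length. EPB41L4A-AS1 was lowest on both lengths. Genes on the other strand cover 49.6% of its exon bases, 29.3% of those of SNHG6 and 25.2% of those of SNHG7. How reads over such bases were counted was not given, so the order of these levels is uncertain.

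The first comparison asked how the hosts respond to tBHP within each pre-incubation. They did not move as a block. SNHG1 fell and SNHG5 rose in each of the 3 pre-incubations, GAS5 and SNHG15 passed the test in none (GAS5 passed in cNSF cells once the trend over GC content and length was removed), and changes were at most 0.55 on the log2 scale. In PBS cells 5 of 10 members passed an adjusted p under 0.05 (limma on log2 of the normalized count plus 1, adjusted over all 13686 genes), 2 higher and 3 lower, where 51.1% of all genes passed (24.2% higher and 26.9% lower). Without PBS replicate 2, PBS replicate 3 or PBS tBHP replicate 2 only 3 passed, 1 higher and 2 lower. In cNSF cells 7 passed, 5 higher and 2 lower, against 50.8% of all genes (24.0% and 26.8%). Without replicate 3 of cNSF after tBHP 4 passed there, 1 higher and 3 lower. Without cNSF replicate 2 also 4 passed, 3 higher and 1 lower. The shares of all genes in fits that leave out a library are not given here. In fNSF cells 6 passed, 3 higher and 3 lower, against 41.9% of all genes (19.2% and 22.7%). The median log2 change of the 10 members was 0.060, 0.24 and 0.11 in PBS, cNSF and fNSF cells, and that of all genes was 0.0043, -0.00053 and -0.034. Leaving out 1 library moved the members' median to between -0.00032 (without PBS tBHP replicate 3) and 0.11 (without PBS replicate 1) in PBS cells, 0.14 (without cNSF tBHP replicate 3) and 0.31 (without cNSF tBHP replicate 1) in cNSF cells, and 0.027 (without fNSF tBHP replicate 3) and 0.19 (without fNSF tBHP replicate 2) in fNSF cells. In all 3 pre-incubations the same 4 members were called in the same direction, SNHG1 and SNHG12 lower and SNHG5 and EPB41L4A-AS1 higher, while 32.4% of all genes were called in 1 direction in all 3.

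**Figure D1:**
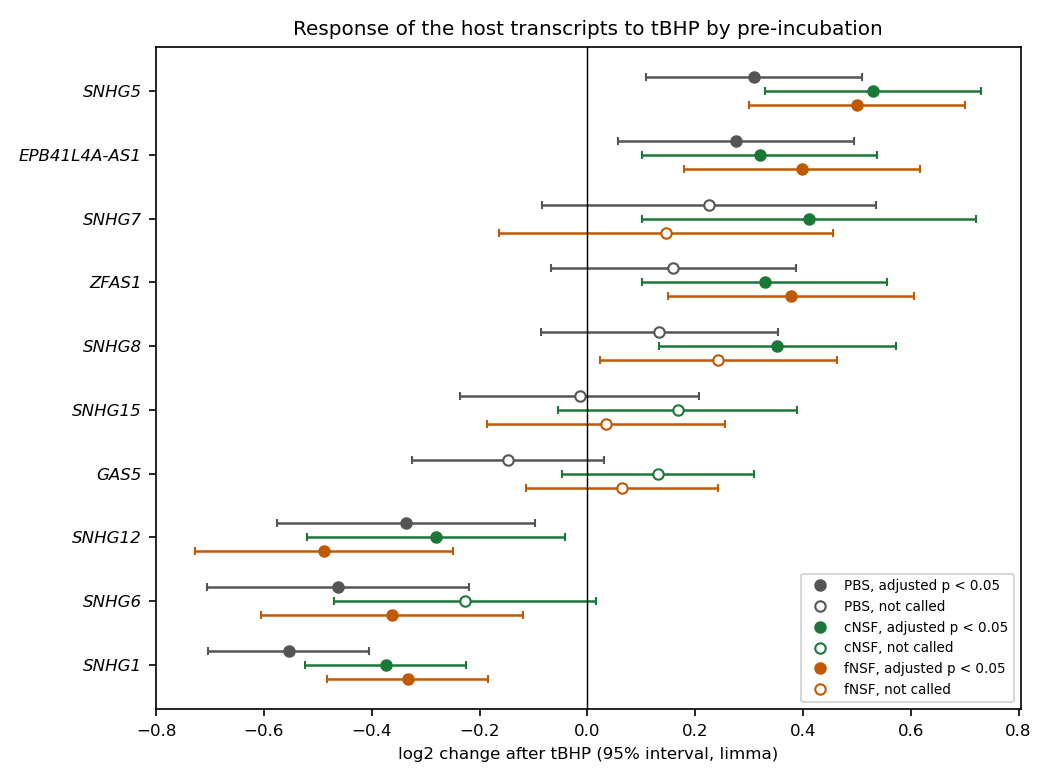
log2 change after tBHP of each member (points, with 95% intervals of the limma fit) in PBS (grey), cNSF (green) and fNSF (orange) cells; filled points passed an adjusted p under 0.05. SNHG1, SNHG6 and SNHG12 lie below 0 and SNHG5 and EPB41L4A-AS1 above 0 in all 3 pre-incubations. The intervals of GAS5 and SNHG15 span 0.

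SNHG1, the host of SNORD22 and SNORD25 to SNORD31, showed the clearest fall. Its normalized counts in PBS cells were 2627, 2295 and 2455 without tBHP and 1618, 1692 and 1709 after it. In cNSF cells they were 2198, 2514 and 2386 and then 1731, 1817 and 1924. In fNSF cells they were 2492, 2480 and 2441 and then 2105, 1913 and 1875. In each pre-incubation every library after tBHP was below every library without it. The log2 change was -0.55 ± 0.071 (SE, adjusted p = 4.92e-06) in PBS cells, -0.37 (adjusted p = 0.000296) in cNSF cells and -0.33 (adjusted p = 0.00103) in fNSF cells by limma. Of the 10 members SNHG1 alone kept its call in each of the 3 pre-incubations in all 18 alternatives, which leave out in turn the 6 libraries of the comparison.

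SNHG12, the host of SNORA16A, SNORA44, SNORA61 and SNORD99, stood at 400, 416 and 415 normalized counts in PBS cells and at 328, 294 and 355 after tBHP. In fNSF cells the values went from 377, 408 and 441 to 276, 284 and 312, again without overlap. In cNSF cells they went from 383, 443 and 436 to 289, 349 and 408, and there the groups overlapped, through replicate 3 after tBHP. Its log2 change was -0.34 ± 0.11 (SE) in PBS, -0.28 ± 0.11 in cNSF and -0.49 ± 0.11 in fNSF cells, with limma adjusted p of 0.0196, 0.0471 and 0.00215. The PBS call was lost in 6 of 18 alternatives, under TMM or quantile scaling, with edgeR and without any of 3 libraries (adjusted p up to 0.0860). The cNSF call was lost in 9 of 18, under the same scalings and edgeR, with no filter, with only the groups compared and without any of 4 cNSF libraries, of which replicate 1 after tBHP left a log2 change of -0.15 (adjusted p = 0.262). It was also lost without any of 8 of the 12 libraries of the other groups, which enter the fit through the spread alone (adjusted p up to 0.0582), while that in fNSF cells was kept in all 18 alternatives.

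SNHG6, the host of SNORD87, stood at 439, 361 and 378 in PBS cells and at 281, 284 and 286 after tBHP, a log2 change of -0.46 ± 0.12 (SE, limma adjusted p = 0.00279). In fNSF cells 436, 417 and 396 became 360, 311 and 303 (log2 change -0.36, adjusted p = 0.0170), without overlap, a call lost in 2 of 18 alternatives, without fNSF replicate 1 (0.0647) and without replicate 3 after tBHP (0.0540). In cNSF cells 408, 390 and 365 became 278, 326 and 399, which overlapped, and the log2 change of -0.23 did not pass (adjusted p = 0.109). Without replicate 3 after tBHP the cNSF response of SNHG6 passed. With the trend over GC content and length removed, the PBS response was -0.16 and did not pass (adjusted p = 0.184).

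SNHG5, the host of SNORD50A and SNORD50B, rose. Its normalized counts were 2114, 2028 and 1958 in PBS cells and 2287, 2529 and 2761 after tBHP. In cNSF cells they were 1963, 1884 and 2050 and then 2543, 2599 and 3452. In fNSF cells they were 1938, 2058 and 1984 and then 2896, 2709 and 2853. No library after tBHP fell within the range of its untreated group. The log2 change was 0.31 ± 0.096 (SE) in PBS, 0.53 in cNSF and 0.50 in fNSF cells, with limma adjusted p of 0.0118, 0.000184 and 0.000393. The PBS call was lost without replicate 3 after tBHP, where the adjusted p was 0.0667.

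EPB41L4A-AS1, the host of SNORA13 and the lowest member, also rose in each pre-incubation without overlap of the groups. It stood at 222, 216 and 221 in PBS cells and at 268, 281 and 249 after tBHP. In cNSF cells 218, 233 and 251 became 262, 283 and 333, and in fNSF cells 204, 223 and 199 became 290, 247 and 290. The log2 change was 0.28 ± 0.10 (SE), 0.32 and 0.40, with limma adjusted p of 0.0341, 0.0159 and 0.00488. The PBS call was lost in 6 of 18 alternatives and the cNSF call in 3, and the fNSF call in none.

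ZFAS1, the host of SNORD12, SNORD12B and SNORD12C, passed higher in the cells that had received HA and not in PBS cells, a contrast that depended on the libraries used. In PBS cells 483, 455 and 462 normalized counts became 465, 553 and 550, with overlap (log2 change 0.16 ± 0.11, SE; limma adjusted p = 0.230). In cNSF cells 455, 441 and 484 became 504, 535 and 716, and in fNSF cells 429, 463 and 451 became 574, 608 and 563, both without overlap (log2 change 0.33 and 0.38, adjusted p = 0.0169 and 0.00913). With the GC and length trend removed the cNSF response of ZFAS1 was 0.10 and did not pass (limma adjusted p = 0.362), and the fNSF response was 0.21 and passed (0.0474). The cNSF call of ZFAS1 was also lost without replicate 3 after tBHP (0.18, adjusted p = 0.112) and without cNSF replicate 2 (0.30, 0.0615), and the PBS response passed without the 3 libraries described below as far out in GC-rich genes (0.24, 0.00545). The difference between the fNSF and the PBS response was 0.22 ± 0.15 (SE) with an adjusted p of 0.689, so that a response particular to HA was not shown.

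SNHG8, the host of SNORA24, stood at 626, 580 and 566 in PBS cells and at 685, 668 and 592 after tBHP, with overlap. In cNSF cells 567, 617 and 602 became 697, 687 and 915, and in fNSF cells 605, 555 and 589 became 673, 635 and 768, both without overlap. SNHG8 had a log2 change of 0.13 ± 0.10 (SE) in PBS, 0.35 in cNSF and 0.24 in fNSF cells, and by limma adjusted p it passed in cNSF cells (0.00930) and not in PBS (0.301) or fNSF cells (0.0712). The cNSF call of SNHG8 was lost without replicate 3 after tBHP (log2 change 0.22, adjusted p = 0.0612). In fNSF cells SNHG8 passed in 5 of 18 alternatives, with TMM or quantile scaling, with edgeR, without replicate 2 after tBHP and without those same 3 libraries (adjusted p from 0.00153 to 0.0309), and also without 1 of the 12 libraries of the other groups (0.0225).

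SNHG7, the host of SNORA17A and SNORA17B and the member richest in G and C (61.2% of its exon bases), stood at 653, 677 and 647 in PBS cells and at 853, 684 and 783 after tBHP. In cNSF cells 600, 652 and 672 became 774, 785 and 1020. In fNSF cells 653, 642 and 590 became 730, 517 and 889, so that after tBHP both the lowest and the highest fNSF library of SNHG7 lay outside the untreated range. SNHG7 had log2 changes of 0.23 ± 0.15 (SE), 0.41 and 0.15, and it passed in cNSF cells alone (limma adjusted p = 0.213, 0.0269 and 0.456). With the GC and length trend removed it was -0.08, 0.08 and 0.06 and passed in none. The cNSF call of SNHG7 was also lost without cNSF replicate 1 (0.36, adjusted p = 0.0889), cNSF replicate 2 (0.42, 0.0540) or replicate 3 after tBHP (0.28, 0.15). Its fNSF response passed without replicate 2 after tBHP (0.36, 0.0141), a library that also drops out when the 3 GC-deviating ones are left out (0.000553), and its PBS response passed when only the groups compared entered the fit (0.23, 0.0477).

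GAS5, the most abundant member by normalized count and the host of a set of box C/D snoRNAs between SNORD44 and SNORD81, stood at 3432, 3262 and 3359 in PBS cells and at 2793, 3021 and 3285 after tBHP. In cNSF cells 2917, 3273 and 3130 became 3102, 3211 and 3938, and in fNSF cells 3052, 3450 and 3267 became 3433, 3472 and 3303. The groups overlapped in all 3. GAS5 had a log2 change of -0.15 (95% interval -0.32 to 0.03) in PBS, 0.13 (-0.05 to 0.31) in cNSF and 0.06 (-0.11 to 0.24) in fNSF cells, with limma adjusted p of 0.158, 0.209 and 0.573. With the GC and length trend removed the cNSF response of GAS5 was 0.30 and passed (adjusted p = 0.00108).

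SNHG15, the host of SNORA9, stood at 511, 442 and 480 in PBS cells and at 414, 464 and 548 after tBHP. In cNSF cells 434, 468 and 439 became 468, 490 and 552, and in fNSF cells 410, 434 and 472 became 436, 419 and 494. The groups overlapped in all 3, and the log2 change was -0.01 ± 0.11 (SE), 0.17 and 0.03 with limma adjusted p of 0.924, 0.195 and 0.820. The intervals of these changes reached from -0.24 to 0.39.

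**Figure D2:**
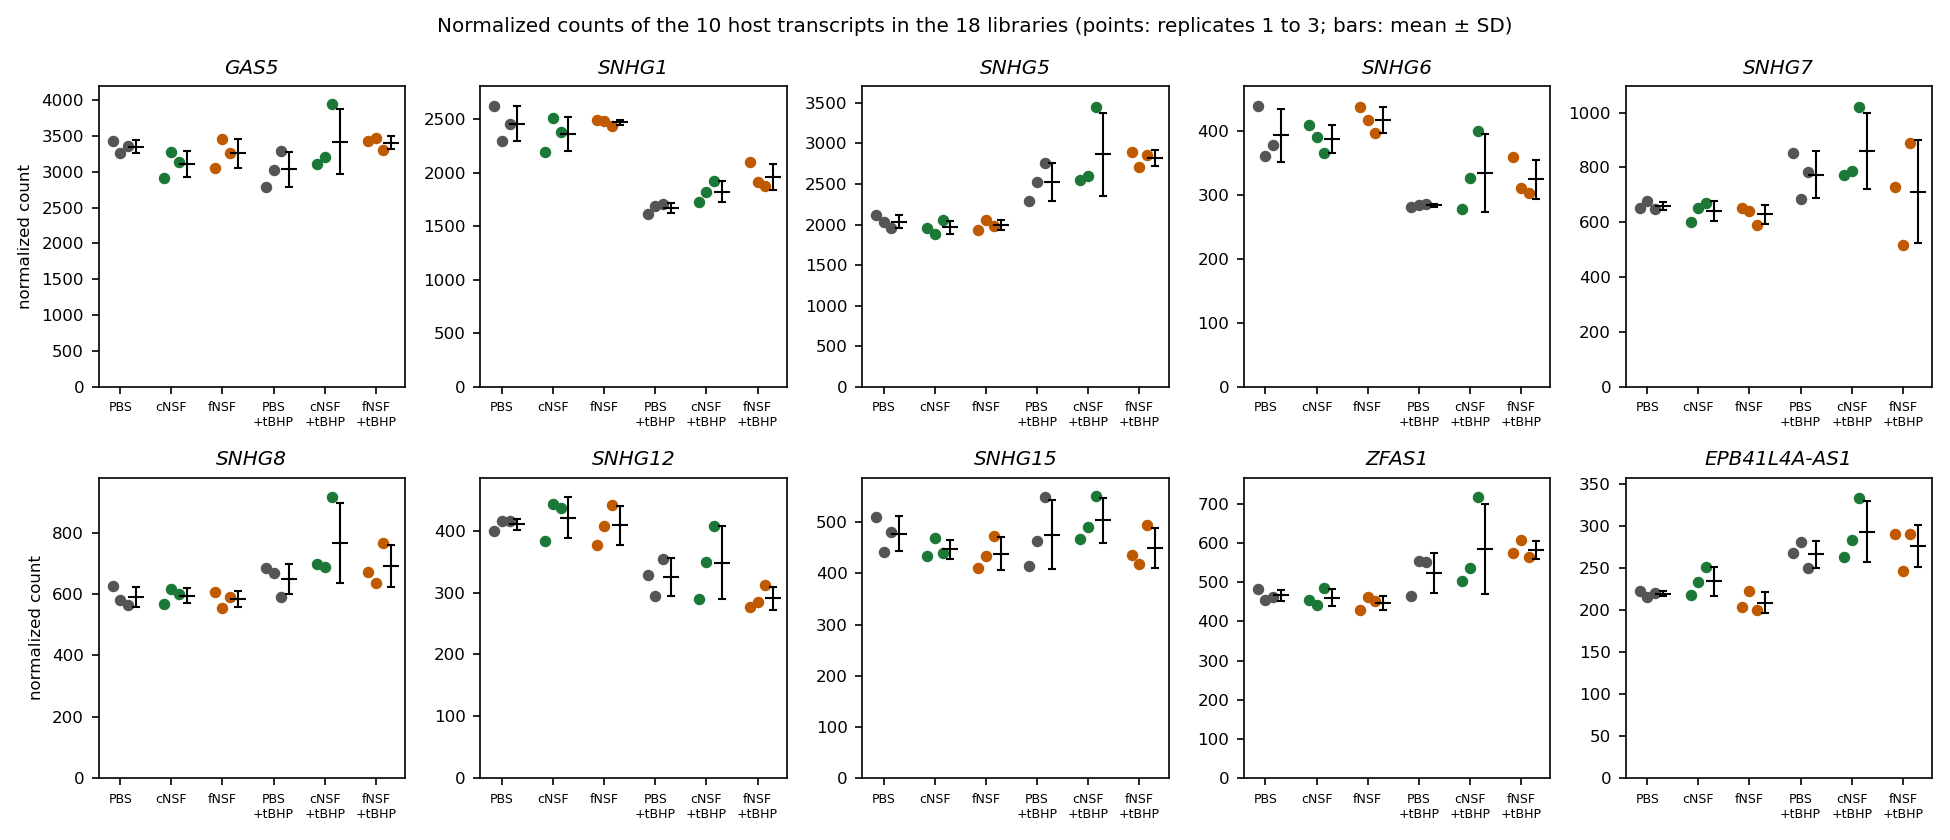
Normalized counts of the 10 members (vertical axes from 0) in the 3 libraries of each of the 6 groups, with the mean and SD beside the points. SNHG1 is lower and SNHG5 higher in all 9 libraries after tBHP than in all 9 without it, and replicate 3 of cNSF after tBHP is the highest of its group for each member.

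Groups without overlap were seen for 3 members higher and 3 lower in PBS cells, where 31.8% and 32.0% of all genes showed the same. In cNSF cells they were seen for 5 higher and 1 lower (31.4% and 32.3% of all genes), and in fNSF cells for 4 higher and 3 lower (22.6% and 26.2%).

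The second comparison asked whether HA changed the level of the hosts. No member passed in any of the 3 comparisons without tBHP by limma, nor did any gene (0.00%), and at an unadjusted p under 0.05 there were 0 of 10 members in each of the 3 and 0.921%, 0.796% and 1.51% of all genes for cNSF against PBS, fNSF against PBS and cNSF against fNSF. The log2 differences of the members lay between -0.12 and 0.16, and their 95% intervals between -0.38 and 0.38. The comparisons of cNSF and of fNSF with PBS share the PBS libraries. The fit used 1 spread per gene for all 18 libraries. Pairs of replicates differed more after tBHP (chi-square per degree of freedom 2.72 to 64.8) than without it (1.45 to 2.55). The tests without tBHP thus carry the wider spread, and the lack of calls does not show that HA had no effect. With only the groups compared in the fit, no member passed either. The groups overlapped for all 10 members in all 3 comparisons, while groups without overlap were seen, higher and lower, for 6.89% and 8.33% of all genes in cNSF against PBS, 9.17% and 4.82% in fNSF against PBS and 7.91% and 17.1% in cNSF against fNSF.

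After tBHP no member passed either by limma with all libraries, while SNHG1 and SNHG7 each passed in 1 comparison without 1 library. In cNSF against PBS all 10 log2 differences were above 0, from 0.09 in SNHG15 to 0.23 in SNHG8, with a smallest adjusted p of 0.569, and 0.00% of all genes passed. Without replicate 3 of cNSF after tBHP, 8 of 10 were above 0, from -0.03 in SNHG12 to 0.10 in SNHG8, and no member had an unadjusted p under 0.05. Of all genes 48.9% were above 0 with that library and 49.7% without it. SNHG8 was the member with an unadjusted p under 0.05 (8.64% of all genes), and SNHG1 and SNHG8 the members without overlap of the groups (4.57% of all genes higher). In fNSF against PBS 7 of 10 differences were above 0, and 0.139% of all genes passed. SNHG1 had the smallest adjusted p of the members there, 0.121, with a log2 difference of 0.23 ± 0.071 (SE): PBS cells after tBHP held 1618 to 1709 normalized counts of it and fNSF cells 1875 to 2105. Without fNSF tBHP replicate 3 SNHG1 passed (0.26, limma adjusted p = 0.0182). SNHG1, SNHG6, ZFAS1 and GAS5 did not overlap between these groups, all higher in fNSF, as did 6.86% of all genes, and SNHG1 was the member with an unadjusted p under 0.05 (22.7% of all genes). In cNSF against fNSF the differences ran from -0.11 in SNHG1 to 0.29 in SNHG7, no gene passed (0.00%), and SNHG12 was the member with an unadjusted p under 0.05 (32.2% of all genes). Without fNSF tBHP replicate 3 SNHG7 passed there (0.47, limma adjusted p = 0.0108). For this comparison the study, using DESeq2, reported a set of genes at q under 0.05. The 0.00% here belongs to the limma fit with a spread shared by all groups. With DESeq2 on the recovered reads no member passed.

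The size of the tBHP response was then compared between pre-incubations. None of the 10 members passed by limma in any of the 3 tests of the difference, nor did any gene (0.00% in each). The responses of cNSF cells were above those of PBS cells in all 10 members, by 0.04 in EPB41L4A-AS1 to 0.28 in GAS5, and GAS5 was the member with an unadjusted p under 0.05 (4.06% of all genes). Without replicate 3 of cNSF after tBHP they were above in 8 of 10, from -0.06 in SNHG12 to 0.17 in GAS5, and no member had an unadjusted p under 0.05. Of all genes 50.3% were above 0 with that library and 50.6% without it. SNHG1 was that member for fNSF against PBS, where its fall was smaller by 0.22 ± 0.10 (SE, limma adjusted p = 0.667; 6.88% of all genes under an unadjusted 0.05). For cNSF against fNSF there was no such member (3.89% of all genes).

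One library stood apart in the members. In replicate 3 of cNSF after tBHP all 10 were above the mean of the 9 libraries with tBHP, by a median of 0.35 on the log2 scale, and they held 0.0599% of its reads against 0.0426% to 0.0521% in the other 17. Genes in the tenth with the highest GC content were also high in that library, by a median of 0.34, but so they were in replicate 1 of PBS after tBHP (0.31), where 2 of the 10 members were above that mean and their median was -0.16. In replicate 2 of fNSF after tBHP those GC-rich genes were low by a median of -0.81 and the members by -0.07. Their part in the results was looked at by leaving these libraries out and, for single members above, by removing the trend over GC content and length. The cause of these deviations was not tested. Without replicate 3 of cNSF after tBHP, 4 members passed in cNSF cells, SNHG5 higher and SNHG1, SNHG12 and SNHG6 lower. Leaving out all 3 of these libraries was a choice made after seeing the data. Then 6 members passed in PBS cells (3 higher, 3 lower) and 7 in cNSF cells (4 higher, 3 lower). In fNSF cells 8 passed (5 higher, 3 lower). The shares of all genes that pass without these libraries are not given here, so these counts cannot be set against them.

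**Figure D3:**
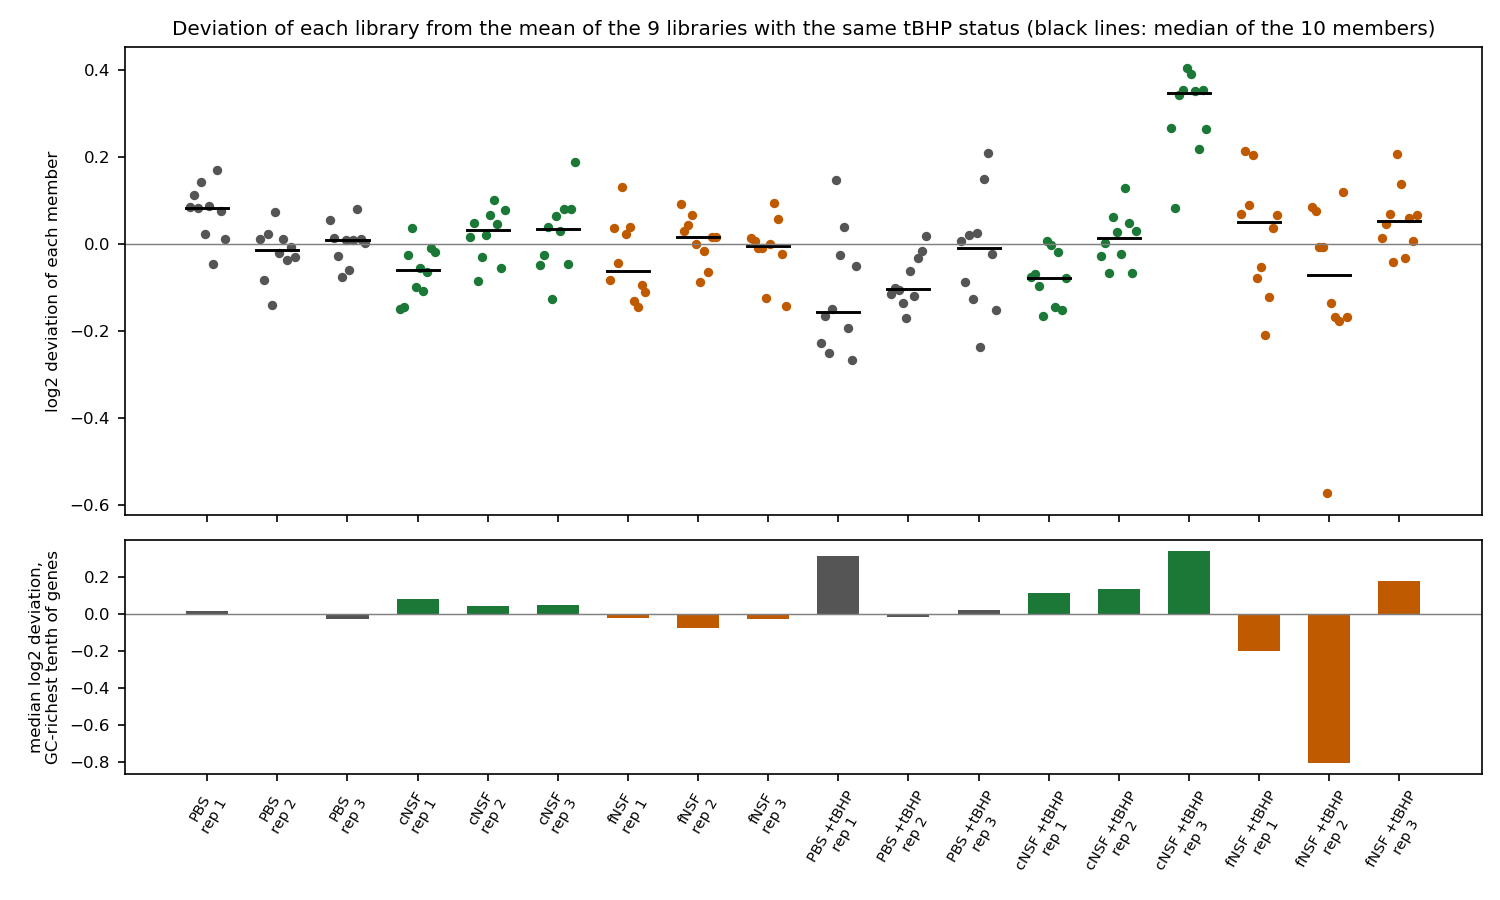
Upper panel, log2 deviation of each member (points) from the mean of the 9 libraries with the same tBHP status, with the median of the 10 members as a black line; lower panel, the median deviation of the tenth of genes richest in GC. Replicate 3 of cNSF after tBHP has all 10 members above 0, while the largest GC deviation, -0.81, is in replicate 2 of fNSF after tBHP.

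Correlations between members within groups rested largely on the library described above. After subtraction of the group means all 45 pairs of members had a Pearson r above 0 over the 18 libraries, with a median of 0.49, and without that subtraction 28 of 45 had, with a median of 0.33. Without replicate 3 of cNSF after tBHP 37 of the 45 within-group values were above 0, with a median of 0.15 and a range from -0.49 to 0.71. These are descriptions over libraries normalized together. That library also enters the following ranking. The genes whose log2 level followed the mean standardized level of the members most closely over the 18 libraries, of 10303 other genes with a mean of at least 100, were RNF7 (r = 0.918), ATP5O (0.898), RPL36AL (0.897), S100A10 (0.868) and C1orf174 (0.866).

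SNHG1 starts close to a protein-coding gene on the other strand, and the sequence between them is shown because the neighbours moved apart. SLC3A2, the heavy chain of several amino acid transporters of the cell surface, starts 224 bases from SNHG1 in RefSeq and 188 bases in GENCODE 29. The RefSeq window of SNHG1 on the minus strand (GRCh38.p14, chr11:62855836-62856135) holds both starts. Capitals mark the first 10 bases of SNHG1, near the right end, and the 10 bases that are complementary to the first 10 of SLC3A2, near the left end.
SNHG1 window: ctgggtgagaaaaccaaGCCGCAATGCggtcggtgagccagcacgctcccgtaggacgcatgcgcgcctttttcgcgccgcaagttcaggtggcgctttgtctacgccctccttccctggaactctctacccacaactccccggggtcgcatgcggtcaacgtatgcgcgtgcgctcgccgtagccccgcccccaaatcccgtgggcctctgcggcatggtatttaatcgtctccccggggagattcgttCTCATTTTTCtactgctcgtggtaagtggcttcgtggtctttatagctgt
SLC3A2 rose from 4167 ± 28.1 to 15568 ± 1525 normalized counts (SD, n = 3) in PBS cells, by 1.90 ± 0.11 on the log2 scale (SE, limma adjusted p = 2.31e-10), while SNHG1 fell by 0.55. In cNSF and fNSF cells SLC3A2 rose by 1.97 and 1.72 while SNHG1 fell by 0.37 and 0.33.

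**Figure D4:**
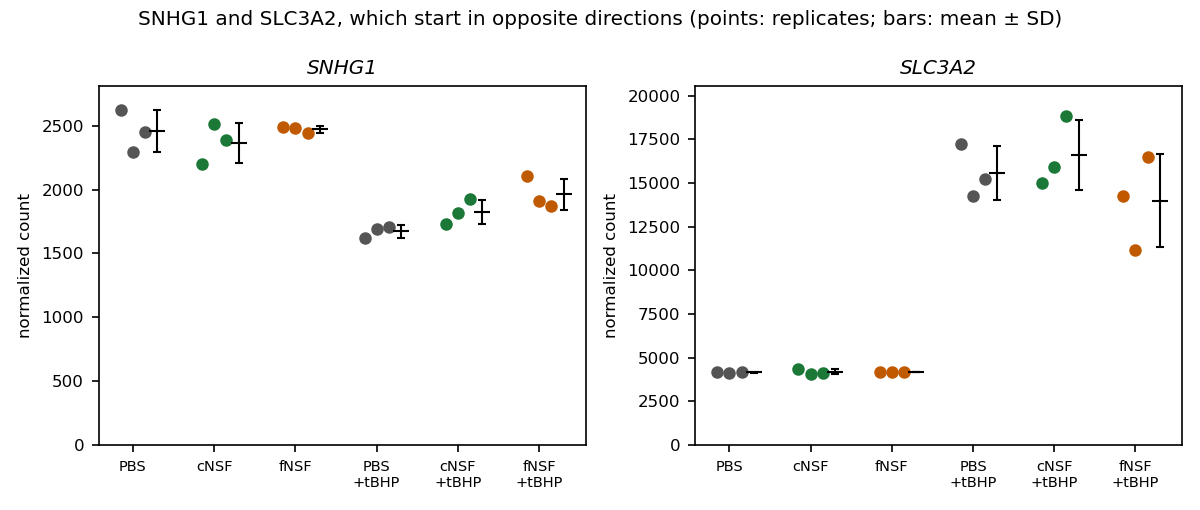
Normalized counts of SNHG1 (left) and SLC3A2 (right) in the 3 libraries of each group, with the mean and SD. After tBHP SNHG1 is lower and SLC3A2 higher in every library than in any library without tBHP.

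Reads of overlapping genes bear on some members, because the library kit does not mark strand and reads from a host and from an antisense gene cannot be told apart where exons overlap. ZNFX1, a helicase gene, covers 11.1% of the ZFAS1 exon bases from the other strand and is more abundant than ZFAS1 (a mean of 1960 against 511 normalized counts). It rose after tBHP by 0.32 in PBS and 0.30 in fNSF cells (limma adjusted p = 0.00724 and 0.0148). The change of 0.16 in cNSF cells did not pass (0.151). How reads over shared exon bases were counted was not given, so whether they add to a member or are lost from it is not known. TRNAU1AP (mean 427) covers 0.19% of the SNHG12 exon bases. It rose in cNSF cells by 0.28 (limma adjusted p = 0.0202). EPB41L4A, MCMDC2 and FAM69B were low, at means of 1.92, 5.69 and 2.79, and cover 49.6% of the exon bases of EPB41L4A-AS1, 29.3% of SNHG6 and 25.2% of SNHG7.

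The snoRNAs themselves were nearly absent from the table. Of 33 snoRNA symbols that the members host, 29 had a row, 20 of those rows were at 0 in all 18 libraries, and the other 9 held 529 reads in total over the 18 libraries, when the members held at least 8806 in each. Mature snoRNAs have no poly(A) tail and the libraries were made from polyadenylated RNA, so these rows are no measure of mature snoRNA levels. SNORD99 held 232 reads, SNORD12B 83, SNORA9 77, SNORA13 65, SNORD12C 33, SNORD30 32, SNORD27 3, SNORD74 2 and SNORA24 2. SNORD99, SNORD12B, SNORD12C and SNORA13 do not overlap an exon of their host in GENCODE, and SNORD99 and SNORD12B, those with the most reads, are shown with the letters GATGA of box C and CTGA of box D in capitals, from GENCODE 29.
SNORD99 (chr1:28578749-28578822, minus strand, in an SNHG12 intron): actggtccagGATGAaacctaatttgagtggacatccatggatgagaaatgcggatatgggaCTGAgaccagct
SNORD12B (chr20:49280319-49280409, plus strand, in a ZFAS1 intron): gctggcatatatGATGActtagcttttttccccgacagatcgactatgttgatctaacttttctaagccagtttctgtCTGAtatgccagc
SNORD99 was the sole row of these with a mean of at least 10 normalized counts (12.7, with at most 26 reads in a library). It was lower after tBHP in PBS cells by 1.24 ± 0.43 on the log2 scale (SE, limma adjusted p = 0.0227), and the log2 changes of -0.38 in cNSF and -0.47 in fNSF cells did not pass (adjusted p = 0.483 and 0.410).

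The other noncoding snoRNA hosts, a list of 18 of which 15 passed the filter, were called in both directions. In PBS cells 3 passed higher, 5 lower and 7 did not pass, with a median log2 change of 0.02, and in cNSF cells the counts were 4, 3 and 8 and in fNSF cells 2, 5 and 8. Of all genes 24.2%, 24.0% and 19.2% passed higher and 26.9%, 26.8% and 22.7% lower in PBS, cNSF and fNSF cells. The largest falls of the named hosts exceeded those of the members. SNHG4 went from 163 ± 22.7 to 70.8 ± 3.63 normalized counts (SD, n = 3) in PBS cells, a log2 change of -1.19 ± 0.13 (SE, limma adjusted p = 1.25e-06), and by -1.22 and -0.82 in cNSF and fNSF cells. SNHG3 went from 1452 ± 41.1 to 786 ± 42.7 in PBS cells, a log2 change of -0.89 (limma adjusted p = 2.38e-08), and SNHG18 from 254 to 178 (-0.51, adjusted p = 0.000417). C6orf48, the host of SNORD48 and SNORD52, rose from 1537 ± 104 to 2097 ± 155, a log2 change of 0.45 (limma adjusted p = 0.000168). SNHG3, SNHG18 and C6orf48 were called in the same direction in all 3 pre-incubations, as was SNHG4.

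**Figure D5:**
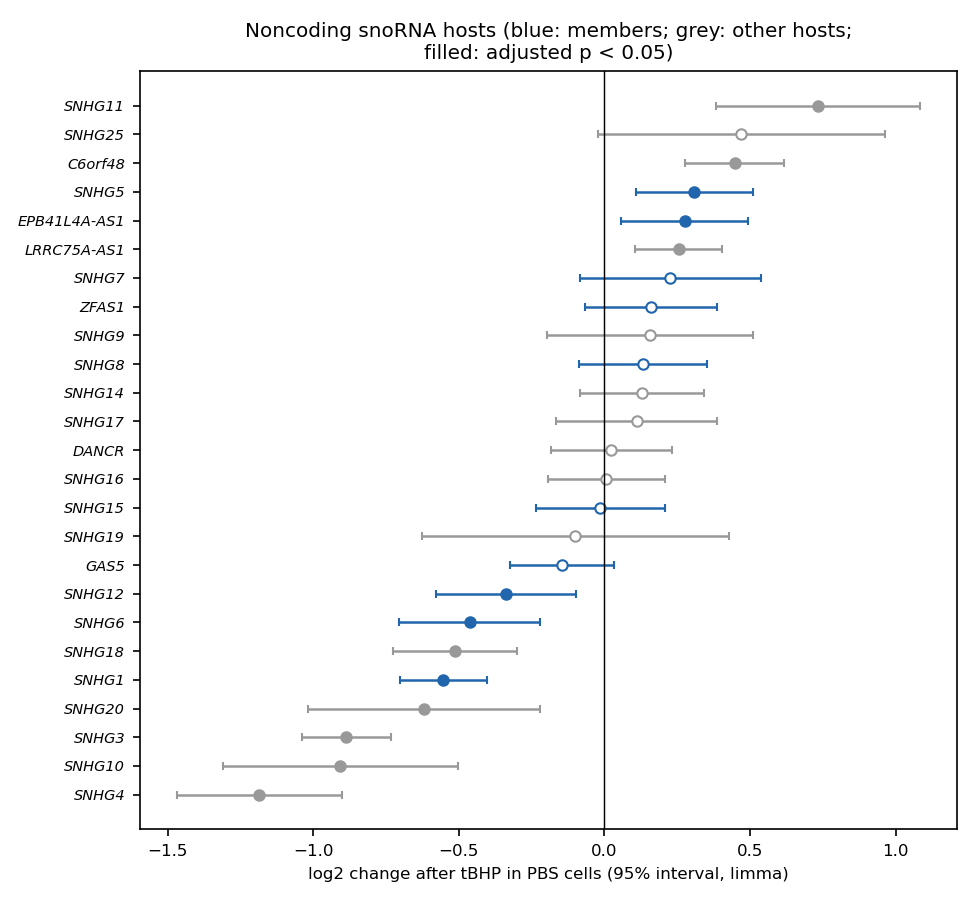
log2 change after tBHP in PBS cells, with 95% intervals of the limma fit, of the 10 members (blue) and of the 15 other noncoding snoRNA hosts tested (grey), in order of the change; filled points passed an adjusted p under 0.05. The hosts spread on both sides of 0, from SNHG4 at -1.19 to SNHG11 at 0.73, with GAS5 and SNHG15 in the middle.

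Of 40 protein-coding hosts of snoRNAs, among them many ribosomal protein genes, 20 were higher, 9 lower and 11 not passing in PBS cells (all genes, 24.2% higher and 26.9% lower), 25, 6 and 9 in cNSF cells and 21, 7 and 12 in fNSF cells, with medians of 0.24, 0.39 and 0.27. RPL12, a protein of the large ribosomal subunit, rose from 9522 ± 172 to 15177 ± 590 normalized counts in PBS cells (log2 change 0.67, limma adjusted p = 2.03e-06) and HSPA9, a mitochondrial chaperone, from 8218 ± 70.7 to 11936 ± 469 (0.54, adjusted p = 1.35e-07). HSPA8, a cytosolic chaperone and the host of SNORD14 copies, fell from 63522 to 48677 (-0.38, adjusted p = 8.80e-06).

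Of 18 proteins that bind and assemble snoRNAs, 2 were higher, 9 lower and 7 not passing in PBS cells (all genes, 24.2% and 26.9%), 3, 8 and 7 in cNSF cells and 0, 9 and 9 in fNSF cells. GAR1, a core protein of the box H/ACA particle, went from 660 ± 53.6 to 315 ± 18.3 normalized counts in PBS cells (log2 change -1.06, limma adjusted p = 1.64e-06). DKC1, the pseudouridine synthase of that particle and itself a snoRNA host, fell by 0.54 (adjusted p = 1.28e-06). NOP58, a core protein of the box C/D particle, fell by 0.70 (adjusted p = 5.51e-06), and SHQ1, an assembly factor of DKC1, by 0.79 (adjusted p = 1.19e-05). All 4 were called lower in all 3 pre-incubations.

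Of the 15 factors of nonsense-mediated decay, the pathway that removes spliced hosts, 7 were higher, 1 lower and 7 not passing in PBS cells (all genes, 24.2% and 26.9%), 6, 0 and 9 in cNSF cells and 5, 1 and 9 in fNSF cells. SMG6, the endonuclease of the pathway, rose from 2063 ± 21.8 to 3144 ± 215 normalized counts in PBS cells (log2 change 0.61, limma adjusted p = 1.78e-06). SMG9 rose by 0.71 (adjusted p = 3.97e-06) and CASC3, of the exon junction complex, by 0.41 (adjusted p = 8.03e-05).

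Among 13 tested regulators of mTORC1 and of TOP mRNAs, 5 were higher, 3 lower and 5 not passing in PBS cells (all genes, 24.2% and 26.9%), 5, 3 and 5 in cNSF cells and 5, 2 and 6 in fNSF cells. The mTORC1 inhibitors DDIT4 and SESN2 rose in PBS cells by 3.27 and 3.06 on the log2 scale (limma adjusted p = 9.41e-13 each), from 325 to 3145 and from 408 to 3424 normalized counts. EIF4EBP1, which blocks the cap-binding factor eIF4E, rose by 1.17 (adjusted p = 3.77e-06), and LARP1, which binds the TOP start, by 0.51 (adjusted p = 6.04e-05). All 12 genes of the ATF4 pathway, the transcriptional arm of the stress response that lowers translation, passed higher in each pre-incubation. Their medians were 2.32, 2.47 and 2.22 in PBS, cNSF and fNSF cells, where 24.2%, 24.0% and 19.2% of all genes passed higher. SESN2 is in this list as well as in that of mTORC1 and TOP mRNA regulators. TRIB3 rose in PBS cells from 282 ± 11.1 to 3802 ± 565 (log2 change 3.74, limma adjusted p = 2.35e-13) and ATF3 from 37.5 ± 3.67 to 618 ± 45.7 (4.01, adjusted p = 3.26e-13).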

How the data were processed

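RNA of 18 IMR90 samples was sequenced as polyadenylated, single-end reads of 100 nt. Per the labels and the study's methods, the authors trimmed reads with Trimmomatic 0.32, aligned them with STAR 2.5.2b to GRCh38.p7, counted them per gene with featureCounts (Subread 1.5.0-p3) and normalized them with DESeq2; the annotation release was not given in the sources used here. The deposited values are a normalized signal, each library's reads over its size factor, and 100% of them came back as whole reads within a tolerance of 0.001 of a read. The authors also deposited p-values, q-values and a ranking score of a test of their own, which were not used.

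Values were tested with limma 3.58.1 (R 4.3.3, trend on the mean) on log2(value + 1), with 1 coefficient for each of the 6 groups, on the 13686 genes with a mean of at least 10. A log2 change is on that scale. p-values were adjusted by Benjamini-Hochberg over all genes in each comparison, and a call is an adjusted p under 0.05. Alternatives used edgeR 4.0.16, DESeq2 1.42.0 on the recovered reads, TMM and quantile scaling, pseudocounts of 0.1 and 5, no filter, a mean of at least 50, only the groups compared, a replicate block, removal of a spline trend over GC content and exon length (91.4% of tested genes had both), and each library of the groups compared left out in turn. Scripts were tested on simulated data. Each library had 20261103 to 26287660 reads on genes. No replicate pair agreed within sampling noise (chi-square per degree of freedom from 1.45 to 64.8).

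Members, gene lists and tests were chosen with earlier results of these data known. All 10 members are named. Of each other list at most 4 genes are named, those called with the smallest adjusted p in the tBHP response of PBS cells among genes with a mean of at least 50, and SLC3A2, SNHG11 and the genes overlapping members were named for their position or place in the order. Gene models are from GENCODE 29 and promoter windows from RefSeq (GRCh38.p14). Some genes that these rules name are not reported here.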

Additional observations from a re-analysis of the deposited data

How the results depend on the processing

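Of 540 recomputed changes of single members after tBHP, 478 kept their direction and their side of the threshold, 36 lost and 12 gained a call, and 14 changed sign, none of these called. All settings other than leaving out a library left the counts of members passing within 1.5 times. Leaving out 1 library moved the count in PBS cells to 3 to 4 (3 without PBS replicate 2, PBS replicate 3 or PBS tBHP replicate 2), in cNSF cells to 4 to 6 (4 without cNSF replicate 2 or cNSF tBHP replicate 3) and in fNSF cells to 5 to 8. The counts of 0 between pre-incubations became 1 (range 0 to 1) without fNSF tBHP replicate 3 for fNSF against PBS after tBHP, where SNHG1 passed (log2 difference 0.26, limma adjusted p = 0.0182), and for cNSF against fNSF after tBHP, where SNHG7 passed (0.47, adjusted p = 0.0108), and were 0 in the other 178 of 180 alternatives.

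With the GC and length trend removed, the sign changed in GAS5 (0.0732), SNHG7 (-0.0783) and ZFAS1 (-0.0270) in PBS cells and in SNHG15 in cNSF (-0.00261) and fNSF cells (-0.0934). SNHG15 in PBS cells was 0.0505 with TMM, 0.0319 with quantile scaling, 0.0567 with edgeR and 0.0804 without the 3 libraries far out in GC-rich genes, and -0.121 to 0.0804 without 1 library. In fNSF cells SNHG15 ran from -0.0350 to 0.0893 and SNHG7 from -0.0318 to 0.359 without 1 library. The cause was not tested. Replicate numbers did not pair the samples (r of deviations from -0.12 to 0.33), and with a replicate block 5, 7 and 6 members passed in PBS, cNSF and fNSF cells and 0 between pre-incubations. TMM moved the median of all genes in PBS cells from 0.0043 to 0.068.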
